A study of Mus musculus with 8 samples.

Results

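Cytosolic ribosomal proteins are the protein part of the ribosomes that translate nuclear-encoded mRNA, and their transcripts were followed here in 8 RNA-seq libraries of mouse microvascular cells with or without endothelial Lrp1. The genes were taken from the deposited expression table by symbol (Rpl or Rps followed by a number and at most the letter a or x, and in addition Rplp0, Rplp1, Rplp2 and Rpsa), which gave 76 of 22520 rows. These were 42 proteins of the large subunit, 31 of the small subunit and the 3 proteins of the P stalk, and Rpl13 was not analysed here. All 76 passed the filter for testing, a value of at least 1 FPKM in at least 4 libraries, as did 11389 rows in all. FPKM counts the fragments of a gene relative to its transcript length in kilobases and to all mapped fragments.

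LRP1, the low density lipoprotein receptor-related protein 1, is a large endocytic and signaling receptor. The cells came from C57BL/6 mice at postnatal day 14 and each library was made from a mix of heart, liver and lung microvascular cells, 4 labelled LRP1 KO and 4 labelled wildtype (WT). Per the study's methods, both genotypes carried floxed Lrp1 (LRP1 f/f), the knockout mice also carried a tamoxifen-inducible CreER driven by the promoter of Cdh5 (VE-cadherin), the control mice carried no CreER, and cells were selected on beads with an antibody to PECAM-1. The labels do not say whether the 4 libraries of a group came from separate mice, so the p-values measure the spread between these libraries, which may be technical.

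Nearly every ribosomal protein is present once in a ribosome, and the proteins are built onto ribosomal RNA in the nucleolus before the large and the small subunit are exported. The mRNAs of these proteins are among the most abundant of most cells and many start with a cytosine followed by a run of pyrimidines, the 5′ terminal oligopyrimidine (TOP) motif. Through this motif mTORC1 signaling sets how well they are translated, often with no change in mRNA level, so mRNA level and protein synthesis can part.

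Lrp1 itself had a mean of 120.1 ± 16 FPKM (SD, n = 4) in WT and 4.79 ± 2.2 FPKM (n = 4) in LRP1 KO. No LRP1 KO library reached the level of any WT library. The highest of the LRP1 KO libraries was LRP1 KO 4, with 7.72 FPKM. The libraries also differed in cell type markers. The summed level of 20 endothelial markers was 192 to 205 FPKM in WT against 201 to 691 FPKM in LRP1 KO. Of 18 tested genes 2 were called higher, all 18 had estimates above 0 and the median log2 fold change was 0.88. Sox17 was under 1 FPKM in every library. The summed level of the 17 macrophage markers in the table was 104 to 126 FPKM in WT against 242 to 571 FPKM in LRP1 KO. Of 10 tested genes 7 were called higher. Of the 17 markers 6, among them Cd163, Clec4f and Cx3cr1, stayed under 1 FPKM in every library. Pecam1, the antigen of the selection, was at 6.80 to 8.76 FPKM in WT, at 6.72 FPKM in LRP1 KO 4 and at 18.5 to 36.3 FPKM in LRP1 KO 1, 2 and 3, so that LRP1 KO 4 was close to WT in this marker. Mural cell markers summed to 675 to 841 FPKM in WT against 1050 to 1650 FPKM in LRP1 KO, with 5 of 9 tested genes higher and Kcnj8 and Abcc9 under 1 FPKM in every library. Fibroblast markers summed to 2630 to 3850 FPKM in WT against 2220 to 3490 FPKM in LRP1 KO, with 2 of 12 tested genes called lower and 1 higher, 1 estimate above 0 and a median log2 fold change of -0.30. What part these differences had in the values of the ribosomal protein genes was not tested, and in bulk samples fewer cells of a type and less RNA per cell cannot be told apart.

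The ribosomal protein genes were among the most abundant transcripts of every library. They made up 17 of the 50 and 75 of the 200 genes with the highest mean level. Their sum was 13.62%, 13.2%, 12.81% and 13.02% of all FPKM in WT 1 to 4 and 12.7%, 13.07%, 12.19% and 13.41% in LRP1 KO 1 to 4. The ranges of the 2 groups overlapped, with means of 13.16% ± 0.344 (SD, n = 4) in WT and 12.84% ± 0.523 (n = 4) in LRP1 KO. The files were quantile normalized before deposit, which gives every library the same set of values, so a change shared by most of the highly expressed genes, or in the amount of RNA per cell, could not be seen.

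Mean level per length spanned 6.64-fold over the 76 genes. The highest was Rplp1, an acidic protein of the P stalk, at 2186 FPKM over all 8 libraries and rank 16 of the table. The next were Rps12, a small subunit protein known for its part in cell competition (1621 FPKM), Rpl23a, which lies at the exit of the peptide tunnel (1602 FPKM), Rpl41, the smallest of these proteins (1523 FPKM), and Rps24, which is needed for maturation of the small subunit RNA (1477 FPKM). Neighbours among these 4 differed by less than their spread between libraries, as Rps12 ranged from 1533 to 1833 FPKM and Rpl41 from 1417 to 1833 FPKM. At the low end were Rpl37 (329.1 FPKM, rank 238), Rpl22 (407.8 FPKM), Rpl31 (453.3 FPKM), Rps3 (506.2 FPKM), which lies at the mRNA entry site, and Rps25 (511.1 FPKM). Rps3 and Rps25 lay closer together than their own libraries did. The median over the small subunit genes was 888 FPKM and over the large subunit genes 689 FPKM.

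**Figure D1:**
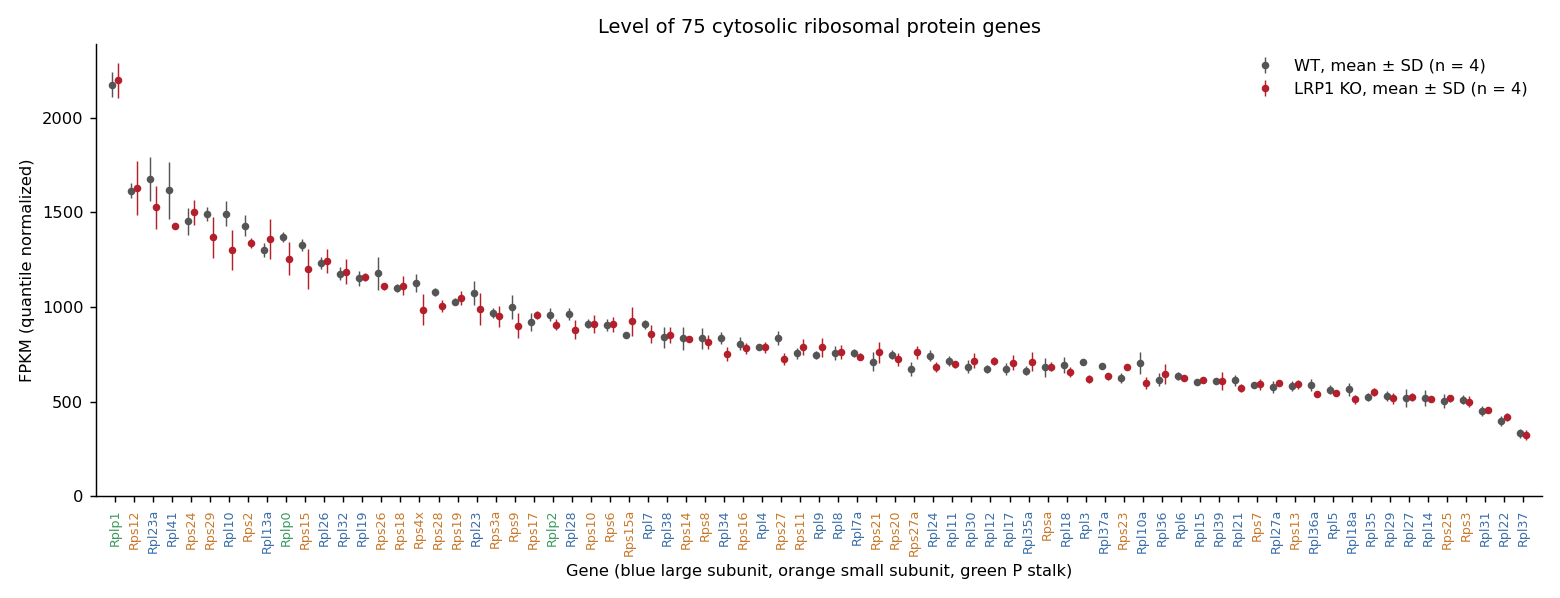
Mean FPKM of 75 of the 76 ribosomal protein genes in WT (grey) and LRP1 KO (red), with SD over 4 libraries, ordered by the mean over all 8. Levels run from 2186 FPKM for Rplp1 to 329.1 FPKM for Rpl37, and the grey and red points lie close together along the whole order.

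Spearman's rho between the levels of the 76 genes in 2 libraries was 0.961 to 0.994 over the 28 pairs of libraries, a description across genes measured in the same libraries. Across the 76 genes, Spearman's rho between level and coding length (75 to 1257 bases) was -0.03, again a description. The spread between libraries was small, with a median coefficient of variation of 4.13% in WT and 4.51% in LRP1 KO. On the log2 scale the median SD within groups was 0.07, against 0.13 over all tested genes. Because normalization gave libraries the same values at the same ranks, the 608 values of these genes held 175 distinct numbers, and the spread is that of rank steps.

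The comparison of LRP1 KO with WT asks what loss of endothelial LRP1 does to the transcripts of these cells. Few of the ribosomal protein genes differed. A gene was called at an adjusted p under 0.05 (limma, Benjamini-Hochberg over all tested genes), and 1 of the 76 was called, Rpl3, lower in LRP1 KO. This is 1.32% of the genes, where 13.6% of all tested genes were called (714 higher, 6.27%, and 833 lower, 7.31%). At an unadjusted p under 0.05 there were 9 of 76 (11.8%), against 33.7% of all tested genes. None of the 76 was called with a change of at least 2-fold, a rule met by 1.62% of all tested genes.

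The median log2 fold change of the 76 genes was -0.01, beside -0.01 over all tested genes, and 0.00708 when libraries were rescaled by their median ratio. It ran from -0.24 for Rpl10a to 0.18 for Rps27a, with 41 estimates below 0 and 35 above (37 and 39 after rescaling). Each of the 76 estimates was within 0.25 log2 of 0, as were 73.3% of those of all tested genes. For each of the 76 genes the 95% interval of the change lay within 0.5 log2 of 0, which held for 73.8% of all tested genes. The lowest bound was -0.40 (Rpl10a, 76% of the WT level) and the highest 0.32 (Rps27a, 125% of it). Among the 147 tested genes outside the set with a mean level in the same range, 19 were called higher and 16 lower. Beside this, 1 of the 76 genes and 13.6% of all tested genes were called. The 147 genes had a median log2 fold change of 0.08, with 84 estimates above 0 and 63 below, so the median of the 76 was lower than theirs. Their median SD within groups was 0.13.

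**Figure D2:**
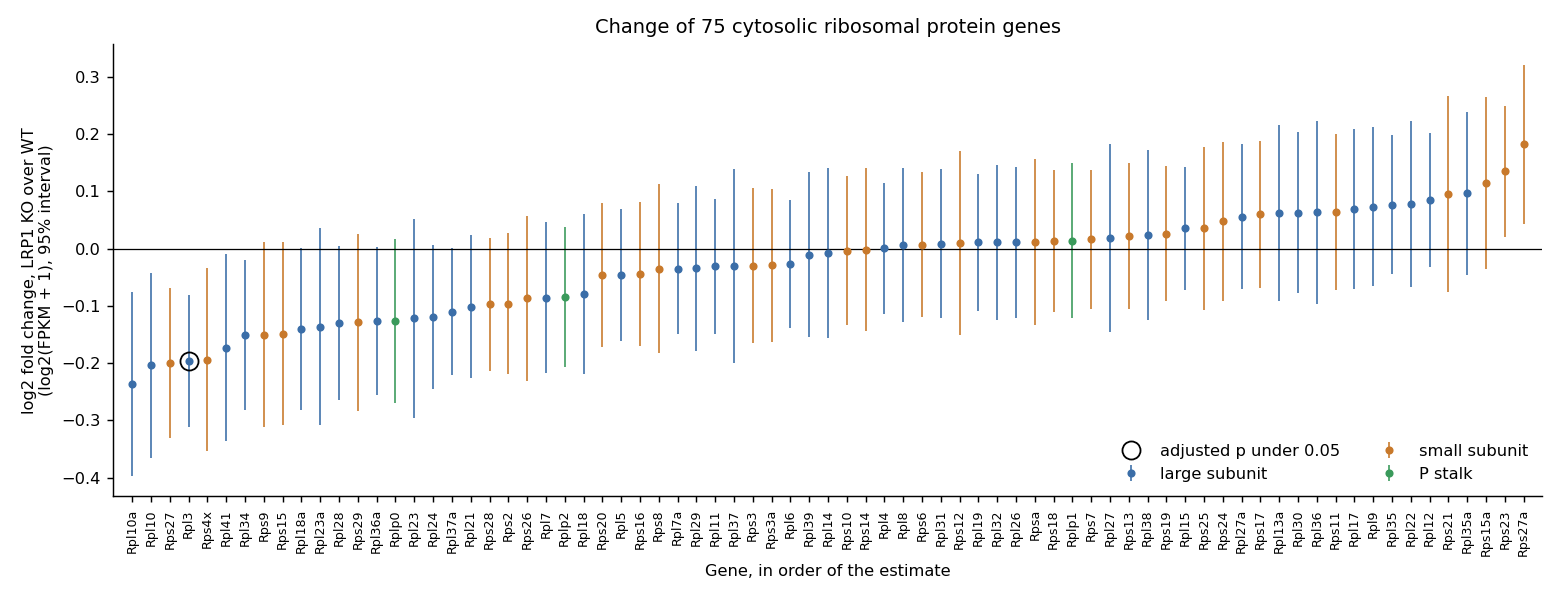
Log2 fold change (LRP1 KO over WT, on log2(FPKM + 1)) of 75 of the 76 genes in order, with limma's 95% interval and the subunit in colour. The estimates run from -0.24 to 0.18 and only Rpl3, circled, had an adjusted p under 0.05.

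**Figure D3:**
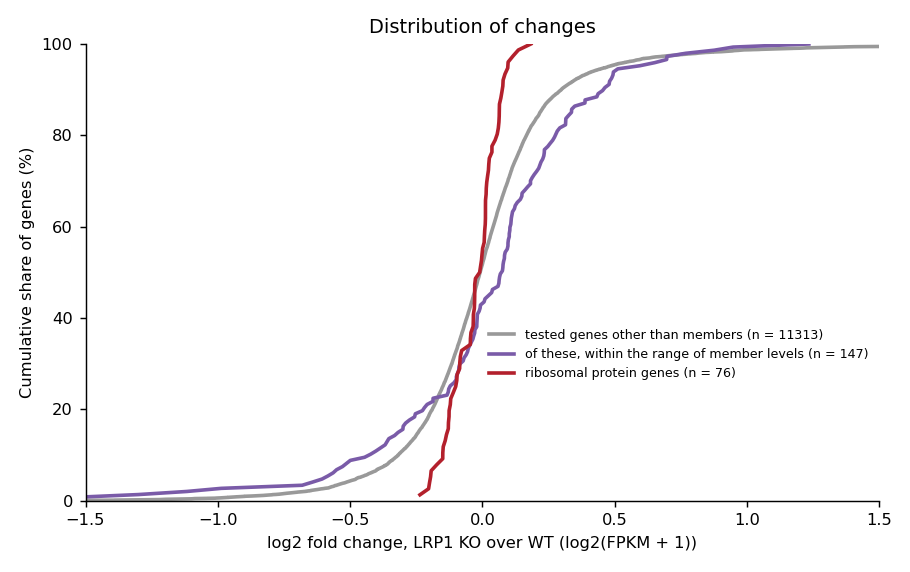
Cumulative share of genes (%) by log2 fold change for the 76 ribosomal protein genes, for the tested genes outside the set and for the 147 of these within the range of levels of the set. The curve of the ribosomal protein genes rises within -0.24 to 0.18, while the other curves extend well beyond; the horizontal axis is limited to 1.5 log2 on either side.

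Rpl3, which lies close to the peptidyl transferase centre, had 729, 708, 688 and 708 FPKM in WT 1 to 4 and 600, 621, 604 and 648 FPKM in LRP1 KO 1 to 4. Every LRP1 KO library lay below every WT library. The mean fell from 708.2 ± 16.7 to 618.2 ± 21.6 FPKM (SD, 4 libraries each), a log2 fold change of -0.20 (SE 0.05, adjusted p = 0.0362 in limma; exact two-sided permutation p = 0.0286, the smallest that 4 against 4 libraries allow). The call was lost without any one of the 4 WT libraries or of LRP1 KO 1, 2 and 3 (adjusted p up to 0.115), and without LRP1 KO 4 the adjusted p was 0.0141. Rpl3 also lost its call with the replicate number as a block (adjusted p = 0.0709 in limma) and without the filter (adjusted p = 0.0546 in limma). Rpl3 lies on chromosome 15 (chr15:80077791-80091868 in GRCm38, minus strand), and 85.6% of the 50-base stretches of its transcript also occur in other genes, mostly pseudogenes such as Rpl3-ps1, so reads could be split among them.

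Further genes, chosen after their values were seen, stood next to Rpl3 without passing the threshold. Rpl10a, a large subunit protein of the L1 stalk, where spent tRNA leaves, is encoded at chr17:28328471-28331033 (plus strand) and had 793, 688, 680 and 664 FPKM in WT against 572, 600, 579 and 644 FPKM in LRP1 KO. All LRP1 KO values were below all WT values, with a log2 fold change of -0.24 (SE 0.07, adjusted p = 0.0560 in limma). Rps27, a zinc finger protein of the small subunit encoded at chr3:90212522-90213651 (minus strand), had 888, 829, 829 and 796 FPKM in WT against 692, 722, 726 and 768 FPKM in LRP1 KO. It too had no overlap between groups, at -0.20 (SE 0.06, adjusted p = 0.0506 in limma), but 98.6% of its stretches are shared with Rps27rt.

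On the other side was Rps27a, which is made as a fusion of ubiquitin with a small subunit protein and so supplies both. The gene lies at chr11:29545846-29548109 (minus strand). It had 692, 649, 631 and 712 FPKM in WT against 786, 786, 712 and 762 FPKM in LRP1 KO. The groups met at 711.5 FPKM (WT 4 and LRP1 KO 3) and otherwise did not overlap, with a log2 fold change of 0.18 (SE 0.06, adjusted p = 0.0765 in limma). Rps23, a protein of the decoding centre also chosen after its values were seen, had 662, 608, 611 and 615 FPKM in WT against 676, 692, 688 and 683 FPKM in LRP1 KO. It was the one gene of the set with all LRP1 KO values above all WT values, at 0.14 (SE 0.05, adjusted p = 0.0995 in limma).

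In all, the groups did not overlap for 10 of the 76 genes (13.2%), against 19.6% of all tested genes. LRP1 KO lay below WT for 9 of them (11.8%, against 10.7% of all tested genes): Rpl3, Rpl10a, Rps27, Rpl34, Rpl36a, Rpl37a, Rpl24, Rps2 and Rpl41. Rps23 alone lay above (1.32%, against 8.84%). With libraries rescaled by median ratio the counts were 8 below (9.37% of all tested genes) and 2 above (10.2%). With libraries scaled to the 76 genes themselves, an alternative added after seeing the data, they were 11 below (11.2% of all tested genes) and 9 above (7.72%). This scaling centres the 76 genes near no change by construction. The groups of Rpl41 differed in spread, with 1483 to 1833 FPKM in WT against 1417 to 1442 FPKM in LRP1 KO, a coefficient of variation of 9.34% and 1.02%.

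**Figure D4:**
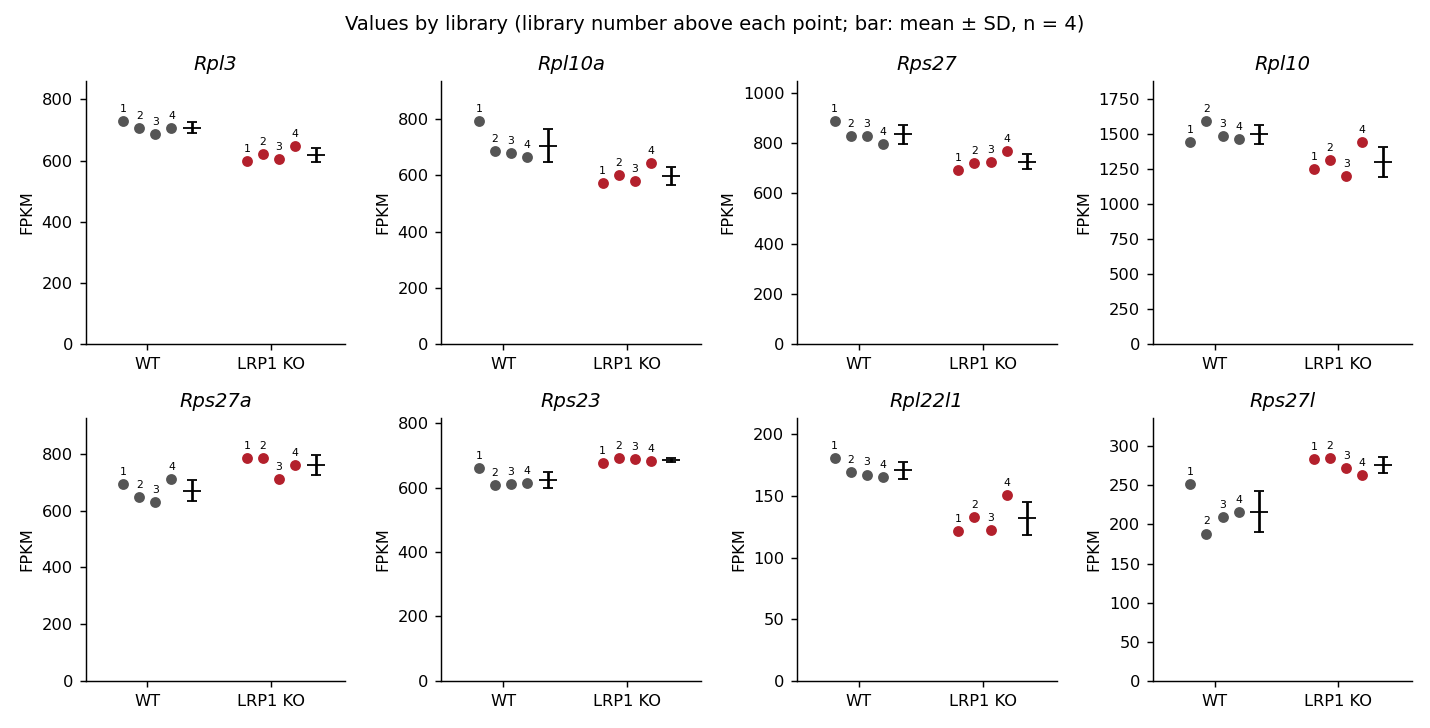
FPKM by library for 6 ribosomal protein genes and the paralogs Rpl22l1 and Rps27l, with mean ± SD (n = 4) as bars and library numbers above the points. Rpl3, Rpl10a, Rps27 and Rpl22l1 are lower in every LRP1 KO library, Rps23 and Rps27l higher, and Rpl10 and Rps27a meet at 1 shared value.

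By subunit, the median log2 fold change was -0.02 over the 42 large subunit genes, with Rpl3 called, and -0.00176 over the 31 small subunit genes, with none called. The geometric mean level of the small subunit genes over that of the large subunit genes was 1.208, 1.198, 1.212 and 1.23 in WT and 1.223, 1.229, 1.237 and 1.226 in LRP1 KO. The means of this ratio per gene were 1.212 ± 0.0134 (SD, n = 4) and 1.229 ± 0.00602 (n = 4), and WT 4, at 1.23, lay inside the range of LRP1 KO. In sum, the fewer small subunit genes made up 43.2% to 43.8% of the ribosomal protein FPKM in WT and 43.8% to 44.1% in LRP1 KO.

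The P stalk proteins bind elongation factors and stimulate their GTPase activity. Rplp0, the base of the stalk, had 1372, 1397, 1372 and 1335 FPKM in WT against 1198, 1272, 1183 and 1372 FPKM in LRP1 KO, where LRP1 KO 4 alone reached the WT values (-0.13, SE 0.06, adjusted p = 0.193 in limma). Rplp1 was at 2175 ± 66.7 and 2198 ± 91.9 FPKM (SD, 4 libraries each), with a log2 fold change of 0.01 (adjusted p = 0.893 in limma). Rplp2 was at 960.4 ± 33.3 and 906.2 ± 29.4 FPKM (-0.08, adjusted p = 0.306 in limma). None of the 3 passed the test, and their share of the summed ribosomal protein FPKM was 6.63% to 6.9% in WT and 6.65% to 6.85% in LRP1 KO.

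Some ribosomal proteins are known for roles of their own. Rps6, the substrate of S6 kinase, was at 905.4 ± 29.2 FPKM in WT against 910.3 ± 39.8 FPKM in LRP1 KO (SD, 4 libraries each), with a 95% interval of the log2 fold change from -0.12 to 0.13. Rpl5 and Rpl11, which as free proteins bind MDM2 and so stabilize p53, had log2 fold changes of -0.05 (95% interval -0.16 to 0.07) and -0.03 (-0.15 to 0.09). Rps19, mutated in Diamond-Blackfan anemia, was at 0.03 (-0.09 to 0.14). Rpsa, which also occurs as a laminin-binding protein, was at 0.01 (-0.13 to 0.16). Rpl38, needed in mice for translation of certain Hox mRNAs, was at 0.02 (-0.12 to 0.17). Rpl22, which also binds the mRNA of its own paralog, was at 0.08 (-0.07 to 0.22). None of these 7 genes passed the test (limma, adjusted p between 0.419 and 0.943).

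The 4 X-linked genes of the set, a group chosen after its values were seen, had a median log2 fold change of -0.16. Rpl10, which joins the subunit late and helps to complete the peptidyl transferase centre, had 1442, 1589, 1483 and 1463 FPKM in WT against 1250, 1309, 1198 and 1442 FPKM in LRP1 KO (-0.20, SE 0.07, adjusted p = 0.0850 in limma). Rps4x, a small subunit protein, had 1147, 1183, 1083 and 1094 FPKM in WT against 936, 1006, 911 and 1094 FPKM in LRP1 KO (-0.19, SE 0.07, adjusted p = 0.0946 in limma). In both, LRP1 KO 1, 2 and 3 lay below every WT library. LRP1 KO 4 was level with WT 1, the lowest, for Rpl10 and with WT 4, the next to lowest, for Rps4x. Rpl36a was at -0.13 (adjusted p = 0.155 in limma) and Rpl39 at -0.01 (adjusted p = 0.926 in limma), which became 0.00538 when libraries were rescaled by median ratio. None passed the test. The Y-linked gene Ddx3y was near 0 in 1 library of each group, WT 4 with 0.0555 FPKM and LRP1 KO 2 with 0.0243 FPKM, while LRP1 KO 1 and 3 had 15.6 and 19.1 FPKM, and its part in these values was not tested.

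Libraries of a group differed in the same direction over many of these genes. LRP1 KO 3 had the single lowest LRP1 KO value for 61 of the 76 genes, LRP1 KO 4 the single highest for 41, and WT 1 the single highest WT value for 48. Without LRP1 KO 4, 6 of the 76 genes were called, all lower (Rpl3, Rpl10a, Rps27, Rpl10, Rps4x and Rps15), which is 7.89% where 26.5% of all tested genes were called in that fit. Without any other single library none was called (limma), in fits that called 4.5% to 8.85% of all tested genes. At an unadjusted p under 0.05 there were then 5 to 10 of the 76, against 24.6% to 32.9% of all tested genes. LRP1 KO 4 was also the LRP1 KO library with the highest Lrp1 and the one whose Pecam1 was close to that of WT. The part of these differences was not tested.

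**Figure D5:**
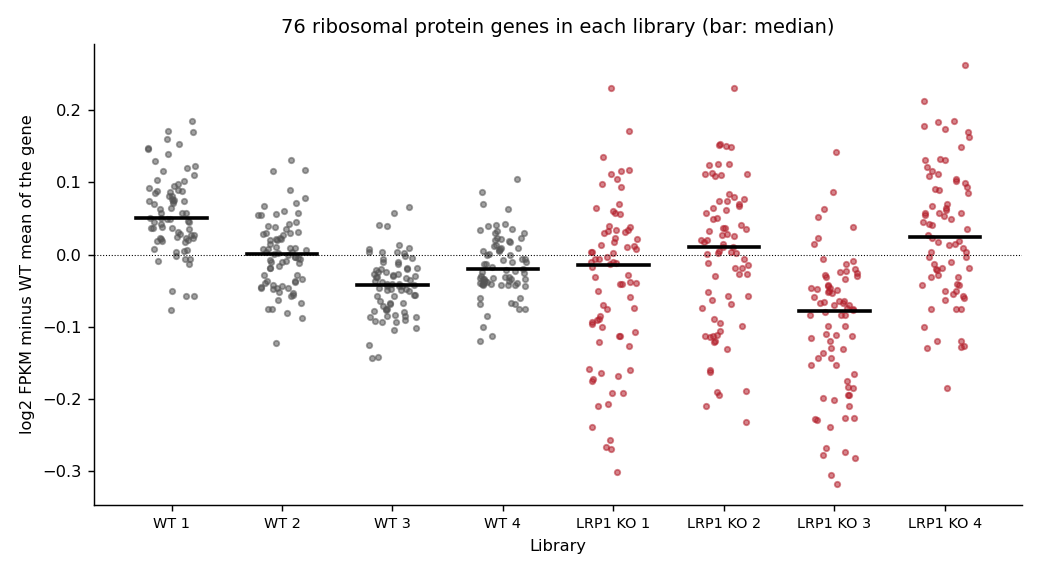
Log2 FPKM of each of the 76 genes in each library minus the WT mean of that gene, with the median as a black bar. Centring on WT narrows the WT points by construction, LRP1 KO 3 holds the lowest LRP1 KO value for 61 genes, and LRP1 KO 4 the highest for 41.

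The sequence around the annotated start of these genes was not used in their choice by name. RefSeq promoters (GRCm38.p6) were found for 55 of the 76 genes, in 65 windows, and the 30 bases from 10 before to 20 after the annotated start were searched for a run of at least 7 C and T on the coding strand. Such a run was present in 31 of the 65 windows (47.7%) and in 17.93% of all 32851 promoters. The run could lie on either side of the start within the window. Rps6 and genes named above show its form, with the run in capitals, 5′ to 3′ on the coding strand. The windows lie at chr4:86857348-86857377 on the minus strand for Rps6, chr3:90213629-90213658 on the minus strand for Rps27, chr3:130730318-130730347 on the minus strand for Rpl34, chr10:23787190-23787219 on the minus strand for Rps12 and chr7:141447641-141447670 on the plus strand for Rplp2. Each holds the 10 bases before the RefSeq start and the first 20 of the transcript, in the 5′ untranslated part of the first exon unless translation starts within it. The run of Rps12 lies after the start, and those of Rps6, Rps27, Rpl34 and Rplp2 cross it.
Rps6: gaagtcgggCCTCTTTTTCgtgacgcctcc
Rps27: cgctttcgCTCCTTTCCggcggtgacgacc
Rpl34: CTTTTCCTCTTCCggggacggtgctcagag
Rps12: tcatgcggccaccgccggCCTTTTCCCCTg
Rplp2: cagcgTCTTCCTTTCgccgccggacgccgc

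Within this window CTTTCC occurred in 13.8% of the ribosomal protein promoters and 1.28% of all promoters, and CTCTTT in 10.8% and 1.02%, both on the coding strand and both overlapping the runs above. Over the whole 300 bases of a promoter, 250 before and 50 after the start, CCGGAAG, the core bound by ETS factors such as GABP, occurred on either strand in 36.9% of them and 8.86% of all promoters. AAGATGG, part of the YY1 motif, occurred in 16.9% and 6.34%. TATAAA, the TATA box, occurred in 9.2% and 13.62%. Genes with and without a call cannot be compared, as Rpl3, the one called, has no entry in the RefSeq table used here.

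The sequences are also shared with copies elsewhere in the genome. Over the 76 genes a median of 55.5% of the 50-base stretches of the transcript occurred in transcripts of other genes, up to 98.6% for Rps27, and the share was at least 50% for 46 genes. The 23 rows of ribosomal protein pseudogenes in the table were low, with a highest value of 0.608 FPKM (Rps26-ps1), and 10 of them were at 0 in every library. How reads with several matches were treated is not known for these values, so small differences between near-identical genes are uncertain.

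Paralogs of ribosomal proteins can take the place of their parents in the ribosome. Of the 4 tested paralogs 1 was called higher and 1 lower (50% of a list of only 4, against 13.6% of all tested genes). Rps27l, a paralog of Rps27 and a p53 target, rose from 216.4 ± 26.2 FPKM in WT to 276.2 ± 10.3 FPKM in LRP1 KO (SD, 4 libraries each), with no overlap between groups and a log2 fold change of 0.36 (SE 0.08, adjusted p = 0.0264 in limma). Rpl22l1, the paralog of Rpl22, fell from 170.9 ± 6.99 to 132.0 ± 13.6 FPKM, also with no overlap, at -0.37 (SE 0.07, adjusted p = 0.0156 in limma). Rpl22l1 was called under all 14 alternative settings and Rps27l under 8 of them, its call being lost without WT 2, 3 or 4 or LRP1 KO 1, 2 or 3 (adjusted p up to 0.0756 in limma). The parents Rps27 and Rpl22 had estimates of opposite sign to these, -0.20 and 0.08, neither of which passed the test. Rpl36al and Rpl7l1 were at 0.06 and -0.01 and did not pass it. Rpl39l and Rpl3l, known from testis and muscle, were under 1 FPKM in every library, as was Rpl10l.

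Of 5 tested ribosomal proteins with other names, none was called (limma), among them Fau, a ubiquitin-like fusion with a small subunit protein (log2 fold change 0.01), and Gnb2l1, the scaffold RACK1 of the small subunit (-0.09).

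Around the ribosome, single genes of the translation and assembly lists passed the test. Of 67 tested ribosome biogenesis factors 11 were called higher and none lower (16.4%). Of all tested genes 6.27% were called higher and 13.6% in either direction. Estimates were above 0 for 55 of the 67 factors and for 5481 of all 11389 tested genes. The median of the list was 0.13, beside -0.01 over all tested genes. The largest rises were those of Rrp9, which binds the U3 snoRNA (15.7 ± 1.19 to 22.02 ± 2.22 FPKM, SD, 4 libraries each, 0.46, adjusted p = 0.0112 in limma), and Pno1, an assembly factor of the small subunit (24.9 ± 0.897 to 34.05 ± 3.19 FPKM, 0.43, adjusted p = 0.00847 in limma). The number called was 4 with replicate number as a block (5.97%, where that fit called 8.89% of all tested genes) and 6 with libraries scaled to the 76 genes (8.96%, against 12%). It was 2 to 19 when 1 library was left out, with 19 without LRP1 KO 4 (28.4%, beside 26.5% of all tested genes in that fit). These shares of all tested genes count both directions, while every biogenesis call was higher. Of 11389 tested genes the block called 493 higher, the scaling to the 76 genes 615 and the fit without LRP1 KO 4 1436. Nucleolin (Ncl) and fibrillarin (Fbl), abundant nucleolar proteins, were at 0.25 (adjusted p = 0.0604 in limma) and -0.01 (adjusted p = 0.933 in limma).

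In each of the next 4 lists the share called was below the 13.6% of all tested genes. Of 19 RNA polymerase I genes 1 was called (5.26%), Cd3eap, a polymerase subunit (0.31, adjusted p = 0.0335 in limma, lost without WT 2, 3 or 4 or LRP1 KO 1, 2 or 3). Of 22 genes that control ribosome synthesis through mTORC1 and MYC 1 was called (4.55%), Myc, a transcription factor that drives ribosome synthesis, with 17.7 ± 1.08 FPKM in WT against 26.4 ± 3.77 FPKM in LRP1 KO (SD, 4 libraries each, 0.54, adjusted p = 0.0121 in limma). Mtor (-0.13, adjusted p = 0.347 in limma) and Larp1, which binds TOP mRNAs (0.01, adjusted p = 0.871 in limma), did not pass the test. Of 76 tested mitochondrial ribosomal proteins 1 was called (1.32%), Mrpl15 (0.21, adjusted p = 0.0336 in limma, kept only without LRP1 KO 4 when 1 library was left out), and their median was 0.01.

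Of 24 tested genes with other TOP mRNAs, a list that overlaps the factor lists, 2 were called (8.33%), both lower. These were Hnrnpa1, an RNA-binding splicing regulator (-0.23, adjusted p = 0.0291 in limma), and Eif4b, a cofactor of the helicase eIF4A (-0.29, adjusted p = 0.0470 in limma), and the median of the list was -0.05. The direction of the calls depended on the scaling, as both rescaling by median ratio and scaling to the 76 genes gave 1 higher, Eef1g, a subunit of eEF1, and 1 lower, Hnrnpa1. When 1 library was left out, Hnrnpa1 was called without WT 3 or LRP1 KO 4 and Eif4b only without LRP1 KO 4. Tpt1, the translationally controlled tumor protein and a classic TOP mRNA, was at -0.28 (adjusted p = 0.0774 in limma) and Eef1a1, the main carrier of aminoacyl tRNA, at -0.08 (adjusted p = 0.559 in limma). Eef2, the translocase, had 848.2 ± 54.2 FPKM in LRP1 KO and 980.4 ± 55.1 FPKM in WT (SD, 4 libraries each), with no overlap between groups, at -0.21 (adjusted p = 0.0666 in limma).

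Of 11 elongation factor genes 1 was called higher, Eef1e1, a scaffold of the aminoacyl tRNA synthetase complex (0.53, adjusted p = 0.0214 in limma), and 2 lower. Eef1a2, the muscle and neuron form of eEF1A, fell from 28.5 ± 7.94 to 11.1 ± 1.56 FPKM (SD, 4 libraries each, -1.25, adjusted p = 0.00482 in limma), and Eef2k, the kinase that inhibits eEF2, was at -0.41 (adjusted p = 0.0253 in limma). These 3 are 27.3% of the list, beside 13.6% of all tested genes. Of 41 initiation factor genes 6 were called (14.6%, near the 13.6% of all tested genes). Of these, 5 were higher, with the largest rises for Eif2s1, the alpha subunit of eIF2 (0.42, adjusted p = 0.0250 in limma), and Eif2b2, a subunit of its exchange factor (0.39, adjusted p = 0.0340 in limma). Eif4b was the one called lower, under 2 of the 14 alternative settings. Its adjusted p was 0.0576 (limma) after rescaling by median ratio, which gave 6 initiation factors higher and 0 lower. When 1 library was left out, Eef1e1 was not called without WT 2 or LRP1 KO 1 or 3, Eef2k without WT 3 or LRP1 KO 1, 2 or 3, Eif2s1 without WT 2 or LRP1 KO 1, 2 or 3, and Eif2b2 without WT 1 or 2 or LRP1 KO 1, 2 or 3.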

How the data were processed

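RNA of 8 libraries (4 WT, 4 LRP1 KO) had been extracted with RNeasy and made into libraries with TruSeq. The authors deposited 1 table of FPKM values, quantile normalized. The sorted values differed between libraries by a median of 0.576% and at most 3.39%. The unit is inferred from the values and is not named in the header. The submitters' processing notes name TopHat2, Cufflinks and mm10, while the study's methods describe trimGalore, STAR and featureCounts. Read depth is unknown, so no counting error is given.

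Expression was analysed as log2(FPKM + 1), and fold changes are on this scale, which understates changes of low genes. Of 22520 genes, 4494 were at 0 in every library and 11389 had at least 1 FPKM in at least 4 libraries and were tested. A count test could not be used. A linear model with group as its term was fitted with limma 3.58.1 (R 4.3.3, variance trend), with Benjamini-Hochberg adjustment over all tested genes, and was tested on simulated data beforehand. Single genes were also tested by exact permutation (two-sided) over the 70 ways to choose 4 of 8 libraries.

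Groups were taken from the sample titles. The genes and lists were chosen with earlier results of these data known. Named genes were Lrp1, the called members, the 5 highest and 5 lowest in level, the P stalk, members with a role of their own, and of each other list the 2 largest rises and 2 largest falls among called genes. Others, such as Rpl10a, Rps23, Tpt1, Eef1a1, Eef2, Ncl, Fbl, Mtor and Larp1, were named after their values were seen. Markers of 10 cell types were summed. Hepatocyte, lung epithelium, lymphocyte, cardiomyocyte and erythroid lists had 0 to 2 tested genes each. Of the leukocyte markers 9 of 12 tested were called higher (75%, against 6.27% of all tested genes), and 10 had estimates above 0. Ptprc, also on this list, was under 1 FPKM in every library.

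Positions and shared stretches of 50 bases came from GENCODE M21 (GRCm38), by symbol for Rpl24, whose identifier belongs there to the neighbour Zbtb11. Promoters came from RefSeq. Of the 76 genes 1 is not reported here by name, and is left out of the plots that name each gene. Alternatives were a pseudocount of 0.1, no filter, libraries rescaled by median ratio, no variance trend, the replicate number as a block, each library left out and, added after seeing the data, libraries scaled to the geometric mean of the 76 genes.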

Additional observations from a re-analysis of the deposited data

Results flagged for a closer look

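Within the groups of 4 libraries, 86 sets of values were examined for a library far from the other 3 (Dixon's ratio of gap to range), and 6 had one, where chance gives about 1 in 20. Rpl23a was at 1696 FPKM in LRP1 KO 4 and at 1463 to 1483 FPKM in the other LRP1 KO libraries. Rpl22 was at 387.1 FPKM in LRP1 KO 3 and at 426.2 to 432.2 FPKM in the others. In WT 3, 2 of the P stalk genes were low, Rplp1 at 2075 FPKM with 2208 FPKM in each other WT library, and Rplp2 at 911 FPKM with 973.3 to 984.2 FPKM in the others. In WT 1, Rpl31 was at 491.6 FPKM with 435.3 to 442.4 FPKM in the others, and Rps23 at 662 FPKM with 607.5 to 615.2 FPKM in the others. Rps23 in WT 1 was still below all LRP1 KO values.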

How the results depend on the processing

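The median log2 fold change of the 76 ribosomal protein genes was -0.03 to 0.01 when 1 library was left out. It moved by less than the spread between libraries under these and the other alternatives. With libraries scaled to these genes it was 0.02, but this scaling sets their mean change near 0 by construction, so it could not test the median. The number of them called was 1 under a pseudocount of 0.1, rescaling and no variance trend, 0 without the filter (9 at an unadjusted p under 0.05), 3 (Rps27a, Rpl3 and Rpl10a) with libraries scaled to these genes, and 0 to 6 when 1 library was left out. Over all genes it was 1547 and 512 to 3021 when 1 was left out, the highest without LRP1 KO 4. Rescaling by median ratio turned the split of 714 higher and 833 lower into 825 and 743. WT and LRP1 KO share replicate numbers in the titles, and the study calls its controls littermates. Deviations of same-numbered libraries correlated at 0.158, 0.141, 0.34 and -0.312. Among the WT libraries the same-numbered one correlated highest with LRP1 KO 1, 2 and 3 and lowest with LRP1 KO 4. These values cannot settle whether the numbers mark pairs, as deviations from the mean of few libraries depend on each other. The numbers were not taken as pairs in the main fit. With the replicate number as a block 0 ribosomal protein genes (9 at an unadjusted p under 0.05) and 1013 of all genes were called, with 4 biogenesis, 2 initiation, 0 polymerase I, 0 mitochondrial ribosomal and 0 other TOP genes. Without the filter the counts were 3 initiation, 0 polymerase I and 1 other TOP gene, in a fit that called 6.45% of all tested genes. Without the variance trend (12.5% of all tested genes called) there was 1 other TOP gene, and rescaling (13.8%) gave 3 mitochondrial ribosomal genes. Scaling to the ribosomal protein genes (12%) gave 6 biogenesis, 2 mTORC1 and MYC and 2 mitochondrial ribosomal genes. With 1 library left out the counts were 2 to 19 for biogenesis, 0 to 8 for initiation, 1 to 5 for elongation and 0 to 1 for polymerase I. They were 1 to 4 for mTORC1 and MYC, 0 to 4 for mitochondrial ribosomal, 0 to 8 for other TOP genes and 1 to 2 for paralogs. Fits with 1 library left out called 4.5% to 26.5% of all tested genes. The highest share was without LRP1 KO 4, the fit that gave or shared the upper count of each list. Estimates close to 0 changed sign when 1 library was left out, within -0.0475 to 0.0384 for Rps12, -0.00811 to 0.0416 for Rplp1, -0.0834 to 0.0111 for Rpl37, -0.00917 to 0.0492 for Rpl31, -0.0605 to 0.00363 for Rps3, -0.0191 to 0.0601 for Rpsa, -0.016 to 0.033 for Rps6 and -0.018 to 0.0584 for Rpl38. The cause of these moves was not tested. Depth is not given by the values, so its effect on precision could not be computed, and the number of libraries limits it.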
